A study of Mus musculus with 4 samples.

Results

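The experiment described here is a comparison of 2 RNA sequencing libraries, out of 4 in the series, made from mouse bone marrow-derived macrophages. One library is titled KO and was treated with lipopolysaccharide (LPS) for 3 h, and the other is titled WT and was untreated. They were chosen by the measured level of Lyz1, a lysozyme gene, as the libraries below 10 CPM (counts scaled to library size), so the comparison crosses the genotype titles. Of the 54532 genes in the table, the 12326 whose CPM averaged 1 or more across the 4 libraries were measured in it. Next to that limit, Slc25a27 (1.0004 CPM) was kept and Tmem267 (0.9995 CPM) was not.

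The macrophages came from C57BL/6 mice of 6 to 8 weeks. The titles WT and KO stand, per the series' design text, for floxed Fbxw7 alleles alone (FBXW7f/f) and for the same alleles with LysM-cre, which places Cre recombinase under the Lyz2 promoter and so deletes in myeloid cells. The genotype labels of the 2 libraries compared here match their titles: the untreated library is labelled FBXW7f/f and the LPS library LysM-cre FBXW7f/f. The remaining libraries, KO untreated and WT with LPS, have genotype labels that go against their titles. Treatment labels match the titles in all 4. By title and by label the 2 libraries therefore differ in genotype as well as in treatment, and those cannot be told apart in a comparison of 1 library with 1 library. All 4 libraries carry floxed Fbxw7. The LPS dose, and whether marrow of several mice was pooled, were not stated in the sources used here. Fold values below are KO with LPS relative to WT untreated unless stated, with 95% intervals in parentheses that cover counting error only. There is no replicate and so no p for this comparison.

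LPS is a component of the outer membrane of Gram-negative bacteria and is sensed by TLR4 together with MD-2 and CD14. The receptor signals through MyD88 to NF-kB and MAP kinases, which switch on cytokine and chemokine genes. It also signals through TRIF to IRF3, which switches on interferon beta, and secreted interferon beta then induces a further set of antiviral genes through STAT and IRF factors. FBXW7 is an F-box protein that recruits MYC, cyclin E, NOTCH and other proteins to an SCF ubiquitin ligase for degradation.

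Lyz1 had 63 counts (2.86 CPM) in WT untreated and 43 counts (2.63 CPM) in KO with LPS, against 910 counts (32.9 CPM) in KO untreated and 569 counts (33.1 CPM) in WT with LPS. These values chose the libraries and are given as a description. Lyz2, the lysozyme gene of macrophages that also holds the LysM-cre insertion, was at 15253 CPM in WT untreated and 18238 CPM in KO with LPS, a ratio of 1.196-fold (1.19 to 1.202) that turns below 1 when library totals replace TMM scaling (log2 ratio -0.32). It was at 8711 CPM in KO untreated and 9917 CPM in WT with LPS. Lyz2 was thus higher in both chosen libraries than in both others, the reverse of Lyz1. The 2 genes lie next to each other on chromosome 10, and their coding sequences of 444 bases are identical at 422 positions (95.05%) with a longest identical run of 118 bases, so reads of one may be counted for the other. The sequences are shown because the choice of libraries rests on telling these genes apart. Below are the first 150 bases of each coding sequence from GENCODE M21 on GRCm38, 5′ to 3′, with capitals at the 14 positions where they differ.

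Lyz1: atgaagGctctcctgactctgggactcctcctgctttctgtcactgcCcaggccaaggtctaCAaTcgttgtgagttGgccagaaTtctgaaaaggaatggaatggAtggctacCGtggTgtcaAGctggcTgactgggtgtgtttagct

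Lyz2: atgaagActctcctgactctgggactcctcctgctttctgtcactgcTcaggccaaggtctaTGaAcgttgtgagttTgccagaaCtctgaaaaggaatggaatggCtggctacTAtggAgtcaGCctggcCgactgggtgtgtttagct

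Fbxw7, the floxed gene, had 395 counts in WT untreated and 191 in KO with LPS, and 477 and 170 in KO untreated and WT with LPS. It was 1.53-fold (1.29 to 1.83) lower in KO with LPS than in WT untreated and did not reach the 2-fold size rule. Both LPS libraries were below both untreated ones, at 11.7 and 9.90 CPM against 17.9 and 17.2 CPM, and within untreated libraries the title made little difference. Counts over the whole gene can include exons outside a floxed segment, so they do not check the deletion.

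Library depth was close for the pair, 17610372 counts in WT untreated and 19464937 in KO with LPS, within a range of 17610372 to 23835940 over the 4 libraries. A gene with 0 counts is limited to 0.136 CPM in WT untreated and 0.184 CPM in KO with LPS, the level of 3 counts. Mitochondrial genes took 1.51% and 1.52% of counts. The most abundant protein-coding transcripts by length-adjusted level were shared by both libraries: Fth1, a ferritin subunit, was at 14438 FPKM in WT untreated and 18864 FPKM in KO with LPS, Lyz2 at 11353 FPKM in WT untreated and 14231 FPKM in KO with LPS and Apoe, an apolipoprotein, at 7584 FPKM in WT untreated and 8809 FPKM in KO with LPS. Macrophage markers were abundant in both, for example the surface receptor Adgre1 at 3044 CPM in WT untreated and 4422 CPM in KO with LPS, and the 8 markers summed to 21454 and 26890 CPM.

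A gene was called higher or lower when its normalized ratio, with 2 counts added, reached 2-fold and the counting interval excluded no change. By this rule 1743 genes (14.1% of the 12326) were higher in KO with LPS and 1935 (15.7%) were lower, 3678 (29.8%) in all. Large differences were mostly upward: 202 of the genes called higher were at 16-fold or more, against 29 of those called lower. The median log2 ratio over all genes was -0.04, and 2961 genes (24.02%) lay within 1.2-fold either way. Genes called higher held 9.17% of normalized counts in WT untreated and 32.1% in KO with LPS, and genes called lower held 6.81% and 1.51%. With library totals in place of TMM scaling, all ratios moved by -0.57 on the log2 scale, so the share of calls that are higher was 20.9% instead of 47.4%. Directions below are relative to TMM scaling.

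**Figure D1:**
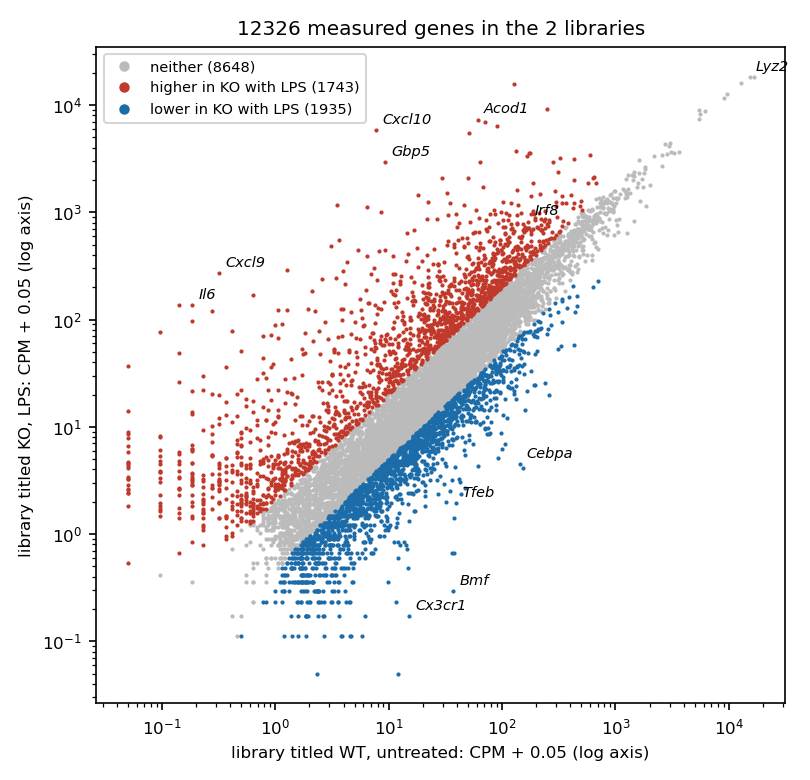
Each point is a measured gene, with its CPM in WT untreated on the horizontal log axis and in KO with LPS on the vertical log axis, each with 0.05 added. Colours mark the 1743 genes called higher and the 1935 called lower. Cxcl10, at upper left, lies farther from the diagonal than Bmf, at lower right.

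The highest and lowest ratios were ranked among protein-coding genes with a mean of at least 5 CPM, leaving out provisional gene symbols. Cxcl11, annotated as a polymorphic pseudogene, is outside this ranking, at a log2 ratio of 9.52. By this rule the 15 highest ratios were those of Cxcl10, Cxcl9, Il6, Ifnb1, Il33, Il12b, Tnn, Ccl5, Gbp5, Serpinb2, Il27, Cd69, Upp1, Socs1 and Ifi205. Cxcl10, a chemokine that attracts activated T cells, had 169 counts in WT untreated and 94734 in KO with LPS, or 7.66 CPM in WT untreated and 5797 CPM in KO with LPS, and was 756-fold (650.4 to 885) higher. It was at 6.80 CPM in KO untreated and 4348 CPM in WT with LPS, so both LPS libraries were far above both untreated ones. Ifnb1, which encodes interferon beta, had 1 count in WT untreated and 1257 in KO with LPS, a ratio of 1696-fold (304 to 67035) whose width comes from that 1 count. Il12b, the p40 chain shared by IL-12 and IL-23, had 0 counts in WT untreated and 608 in KO with LPS, at least 273-fold higher when set against the 3-count floor. Gbp5, a guanylate-binding protein that acts in inflammasome assembly and defence against intracellular bacteria, was at 9.16 CPM in WT untreated and 2950.2 CPM in KO with LPS, 322-fold (280.5 to 372) higher. The tenascin N gene Tnn was 525-fold (224 to 1617) higher and Upp1, uridine phosphorylase, 216-fold (109 to 500.3) higher. Cxcl10, Ifnb1, Il12b and Gbp5 were all below 10 CPM in WT untreated.

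The lowest ratios included the myeloid transcription factor gene Cebpa, the fractalkine receptor gene Cx3cr1 and Bmf, which encodes a pro-apoptotic BH3-only protein. Bmf had 815 counts in WT untreated and 4 in KO with LPS, 151-fold (58.8 to 556) lower. Cx3cr1 had 332 counts in WT untreated and 2 in KO with LPS, 123-fold (33.8 to 1020.2) lower, and Cebpa was at 144 CPM in WT untreated and 4.47 CPM in KO with LPS, 32.3-fold (25.6 to 41.3) lower. In KO untreated and WT with LPS, Bmf was at 34.7 and 0.990 CPM, Cx3cr1 at 6.04 and 0.175 CPM, and Cebpa at 106 and 5.59 CPM. For each of these 3 genes both LPS libraries were below both untreated ones.

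The sequence before the transcription start is shown for 4 of the genes that were higher and 2 that were lower, as the stretch where NF-kB, AP-1, interferon-regulated and STAT factors commonly bind. Each line gives 200 bases upstream of the RefSeq start on GRCm38.p6, 5′ to 3′ in the direction of the gene. Capitals mark matches on either strand to the kappaB consensus, the interferon-response pattern (GAAA repeated after any 2 bases), the TATA box TATAAA, the AP-1 pattern TGANTCA and the STAT pattern TTCNNNGAA. The windows are chr5:92348890-92349089, minus strand for Cxcl10; chr11:44399863-44400062, plus strand for Il12b; chr4:88522795-88522994, minus strand for Ifnb1. They are chr3:142496734-142496933, plus strand for Gbp5; chr7:35119093-35119292, plus strand for Cebpa; chr9:120068297-120068496, minus strand for Cx3cr1.

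Cxcl10: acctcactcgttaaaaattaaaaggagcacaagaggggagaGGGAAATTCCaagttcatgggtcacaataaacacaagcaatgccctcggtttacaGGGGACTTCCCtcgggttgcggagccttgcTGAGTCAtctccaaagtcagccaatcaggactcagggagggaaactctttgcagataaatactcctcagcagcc

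Il12b: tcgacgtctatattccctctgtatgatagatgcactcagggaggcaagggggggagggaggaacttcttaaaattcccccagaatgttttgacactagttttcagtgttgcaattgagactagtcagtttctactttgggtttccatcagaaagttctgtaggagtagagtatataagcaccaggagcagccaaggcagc

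Ifnb1: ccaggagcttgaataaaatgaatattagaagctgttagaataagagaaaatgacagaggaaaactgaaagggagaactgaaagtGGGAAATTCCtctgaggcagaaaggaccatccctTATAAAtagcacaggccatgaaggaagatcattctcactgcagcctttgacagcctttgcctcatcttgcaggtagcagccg

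Gbp5: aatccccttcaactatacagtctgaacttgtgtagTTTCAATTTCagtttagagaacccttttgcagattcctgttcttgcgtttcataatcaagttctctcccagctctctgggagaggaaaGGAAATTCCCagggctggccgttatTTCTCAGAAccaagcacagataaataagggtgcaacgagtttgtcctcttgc

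Cebpa: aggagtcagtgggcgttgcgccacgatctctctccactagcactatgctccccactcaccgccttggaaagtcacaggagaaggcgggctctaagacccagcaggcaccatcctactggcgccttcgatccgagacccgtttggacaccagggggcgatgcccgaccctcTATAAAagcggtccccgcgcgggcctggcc

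Cx3cr1: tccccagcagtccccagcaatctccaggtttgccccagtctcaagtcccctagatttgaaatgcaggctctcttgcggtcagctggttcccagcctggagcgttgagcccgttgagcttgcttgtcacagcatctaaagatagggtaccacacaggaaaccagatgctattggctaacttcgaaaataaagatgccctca

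Counted back from the start to the first base of the match, the Cxcl10 window held kappaB matches beginning 159 bases and, overlapping each other, 104 and 103 bases before it, and TGANTCA 74 bases before it. Ifnb1 held a kappaB match 116 bases and TATAAA 82 bases before the start. Gbp5 held the interferon-response pattern at 165, a kappaB match at 77 and TTCNNNGAA at 52 bases. Cebpa held TATAAA at 30 bases. The windows of Il12b and Cx3cr1 held none of the 5 patterns, which says only that these letters are not in these 200 bases. Over the 32851 RefSeq promoters, the same 200-base stretch held a kappaB match in 6.07%, the interferon-response pattern in 2.27%, TATAAA in 9.96%, TGANTCA in 5.48% and TTCNNNGAA in 5.49%. Promoters could be matched to 9165 of the 12326 genes (74.4%), under 80%, so motif shares of the higher and lower genes are void and are not given.

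Among inflammatory cytokines, 13 of 15 measured genes were higher and none lower, with a median log2 ratio of 4.68 against -0.04 for all genes. Il6, the acute-phase cytokine gene, had 3 counts in WT untreated and 2225 in KO with LPS, 1001-fold (342 to 4856) higher. Tnf, which encodes tumour necrosis factor, was already expressed before LPS at 21.8 CPM in WT untreated and 857 CPM in KO with LPS, and its ratio was 39.3-fold (35.9 to 43.1). Il6 was at 0.145 CPM in KO untreated and 160.4 CPM in WT with LPS, so the untreated libraries lay at a few counts and both LPS libraries far above them. The interleukin 1 genes Il1a and Il1b were 83.9-fold (56.2 to 131) and 53.3-fold (43.2 to 66.6) higher. Il27, a member of the IL-12 family, was 237-fold (163 to 360) higher, and Il33, an alarmin gene, went from 3 to 1572 counts. The 2 cytokines that were not called were Osm (log2 ratio -0.17) and Il10, the anti-inflammatory cytokine, at 6.53 CPM in WT untreated and 11.3 CPM in KO with LPS with a log2 ratio of 0.78.

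**Figure D2:**
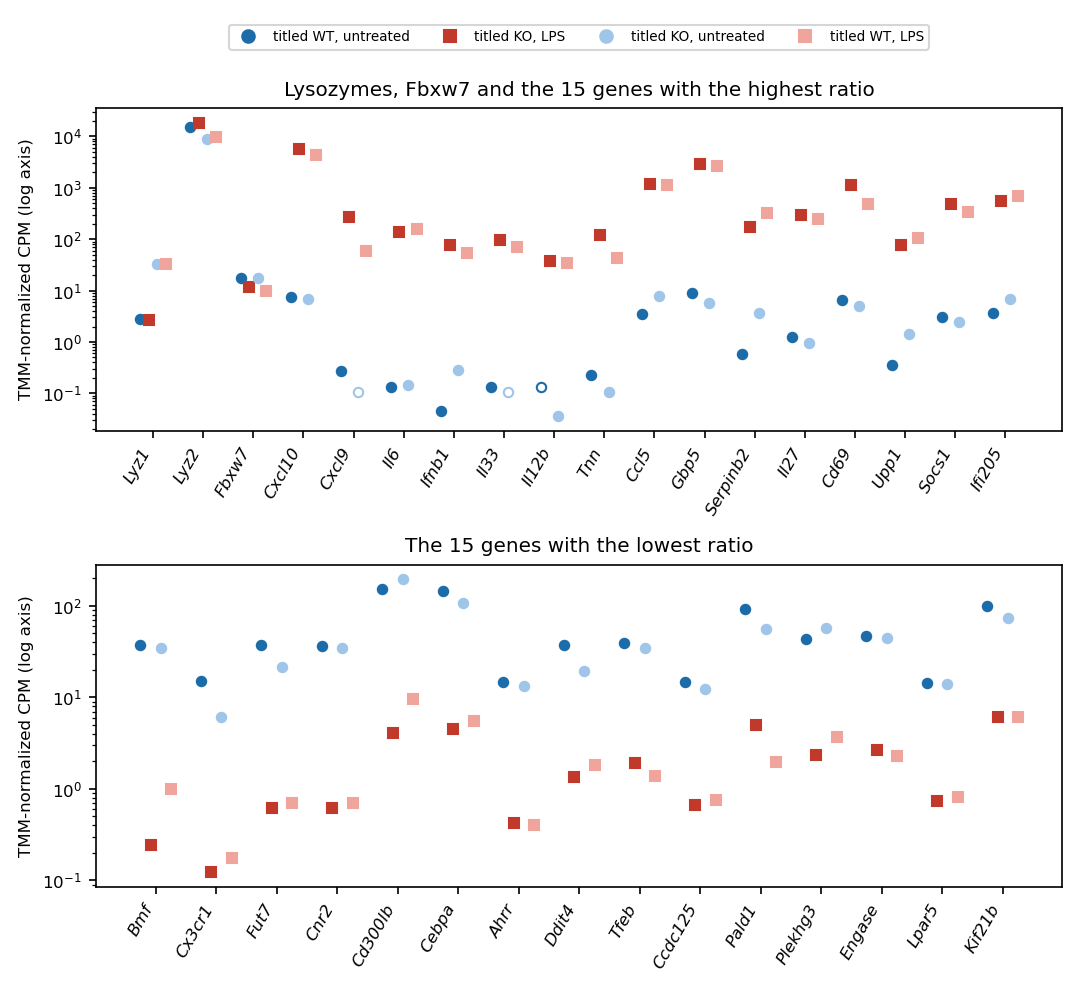
CPM on a log axis in the 4 libraries for the lysozymes, Fbxw7 and the 15 genes with the highest ratio (top) and the 15 with the lowest (bottom). The ranked genes are protein-coding, with a mean of at least 5 CPM. Dark symbols are the 2 low-Lyz1 libraries, pale ones the others, circles untreated and squares LPS. An open symbol is a gene with 0 counts, drawn at the level of 3 counts. For Cxcl10 and Il6 both LPS libraries lie above both untreated ones, for Cebpa and Cx3cr1 below them, whereas Lyz1 separates dark from pale.

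CC chemokines were higher for 6 of 9 measured genes and lower for none, with a median of 4.10. Ccl5, an attractant for T cells and monocytes, was at 3.45 CPM in WT untreated and 1182 CPM in KO with LPS, 343-fold (274 to 435) higher. Of the monocyte attractants, Ccl2 was 17.3-fold (15.6 to 19.2) higher and Ccl7 was 81.6-fold (66.5 to 101) higher. Ccl6, Ccl8 and Ccl9 were not called, at log2 ratios of 0.35, 0.52 and 0.93. By length-adjusted level, Ccl4 was the most abundant CC chemokine in KO with LPS, at 43.3 FPKM in WT untreated and 3261 FPKM in KO with LPS.

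CXC chemokines were higher for 6 of 10 genes, with a median of 3.09. Cxcl9, a further ligand of CXCR3, had 6 counts in WT untreated and 4429 in KO with LPS, 996-fold (457 to 2715) higher, and Cxcl11, annotated as a polymorphic pseudogene, went from 2 to 2242 counts. The neutrophil attractants Cxcl1 and Cxcl2 were 50.9-fold (19.5 to 189) and 8.65-fold (7.09 to 10.6) higher. Cxcl14 was lower, with 51 counts in WT untreated and 4 in KO with LPS. Cxcl16, Pf4 and Ppbp were not called. The ligands of CXCR3 thus had the highest ratios of this family.

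Of 8 chemokine receptors, 4 were lower, 1 was higher and 3 were not called, with a median of -1.06. The lower ones were Cx3cr1, Cxcr3, Cxcr4 and Ccr2. Cxcr4, the receptor for CXCL12, was 4.30-fold (3.65 to 5.09) lower and Ccr2, the receptor for CCL2, 4.49-fold (2.71 to 7.86) lower. By edgeR over the 4 libraries, 3 receptors fell at an adjusted p under 0.05, Cx3cr1, Cxcr3 and Cxcr4. Ccr2 did not fall by that test, also at an unadjusted p under 0.05. Ccrl2, an atypical receptor that binds chemerin, was 83.2-fold (69.3 to 101) higher.

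Interferon-stimulated genes were higher almost throughout: 23 of 25 listed genes were called, none lower, and the median was 3.54. Rsad2, which encodes viperin, was at 128 CPM in WT untreated and 15671 CPM in KO with LPS, 122-fold (118 to 127) higher. Length-adjusted, it was the most abundant protein-coding transcript among those called higher, at 29.0 FPKM in WT untreated and 3712 FPKM in KO with LPS. Cmpk2 and Ifit1 were 98.9-fold (94.1 to 104) and 71.7-fold (68.6 to 75.0) higher. Ifit1 encodes a protein that binds foreign RNA ends. The RNA sensor genes Ifih1 and Ddx58 were 46.7-fold (44.3 to 49.3) and 6.93-fold (6.63 to 7.25) higher. Bst2 and Ifitm3, which restrict virus release and entry, were not called, at 0.71 and 0.87, and were abundant in both libraries. Guanylate-binding proteins and immunity-related GTPases, which attack the vacuoles of intracellular pathogens, were higher for 13 of 14 genes with a median of 4.73; Gbp8 was not called. Several of these genes are near-identical copies of each other (Tgtp1 and Tgtp2, Ifit3 and Ifit3b), so the split of reads within them is uncertain.

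Of the transcription factors of this response, 10 of 15 IRF and STAT genes were higher and none lower, with a median of 1.496. Irf1 was 14.1-fold (13.4 to 14.9) higher, Irf7, the factor that amplifies interferon production, 5.87-fold (5.64 to 6.11), and Irf8, a myeloid lineage factor, 4.78-fold (4.61 to 4.96). For Irf7 the untreated libraries were far apart, at 136 CPM in WT untreated and 606 CPM in KO untreated. It was at 800 CPM in KO with LPS and 1252 CPM in WT with LPS, and did not pass over the 4 libraries (edgeR adjusted p = 0.174). Irf3 and Stat6 were not called, at -0.36 and -0.57. NF-kB subunits and inhibitors were higher for 17 of 18 genes with a median of 2.61. Tnfaip3, which encodes the deubiquitinase A20, had the highest of these ratios at 57.2-fold (52.3 to 62.7), and Nfkbia, the gene of the inhibitor I-kappa-B alpha, was 9.21-fold (8.74 to 9.71) higher. Cyld was not called.

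The receptor complex and its adaptors differed less. Of 20 TLR4 pathway genes, 8 were higher and none lower, with a median of 0.45, or -0.13 with library totals. The co-receptor gene Cd14 was 5.41-fold (5.26 to 5.56) higher, Tlr4 itself 2.47-fold (2.32 to 2.63) and the adaptor Myd88 4.44-fold (4.21 to 4.69). The TRIF gene Ticam1 and the kinase genes Tbk1 and Map3k7 were not called, at 0.34, 0.65 and 0.22. Feedback inhibitors of the SOCS and DUSP families were higher for 9 of 15 genes, led by Socs1 (159-fold, 125 to 206), Socs3 (119-fold, 103 to 138) and Dusp2 (94.2-fold, 72.3 to 125). Socs5 was lower, 4.32-fold (3.27 to 5.80). AP-1 and immediate early genes were higher for 11 of 18, led by Maff (32.3-fold, 24.5 to 43.4), while Fos, Jun and Myc were not called, at 0.23, 0.13 and 0.22.

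**Figure D3:**
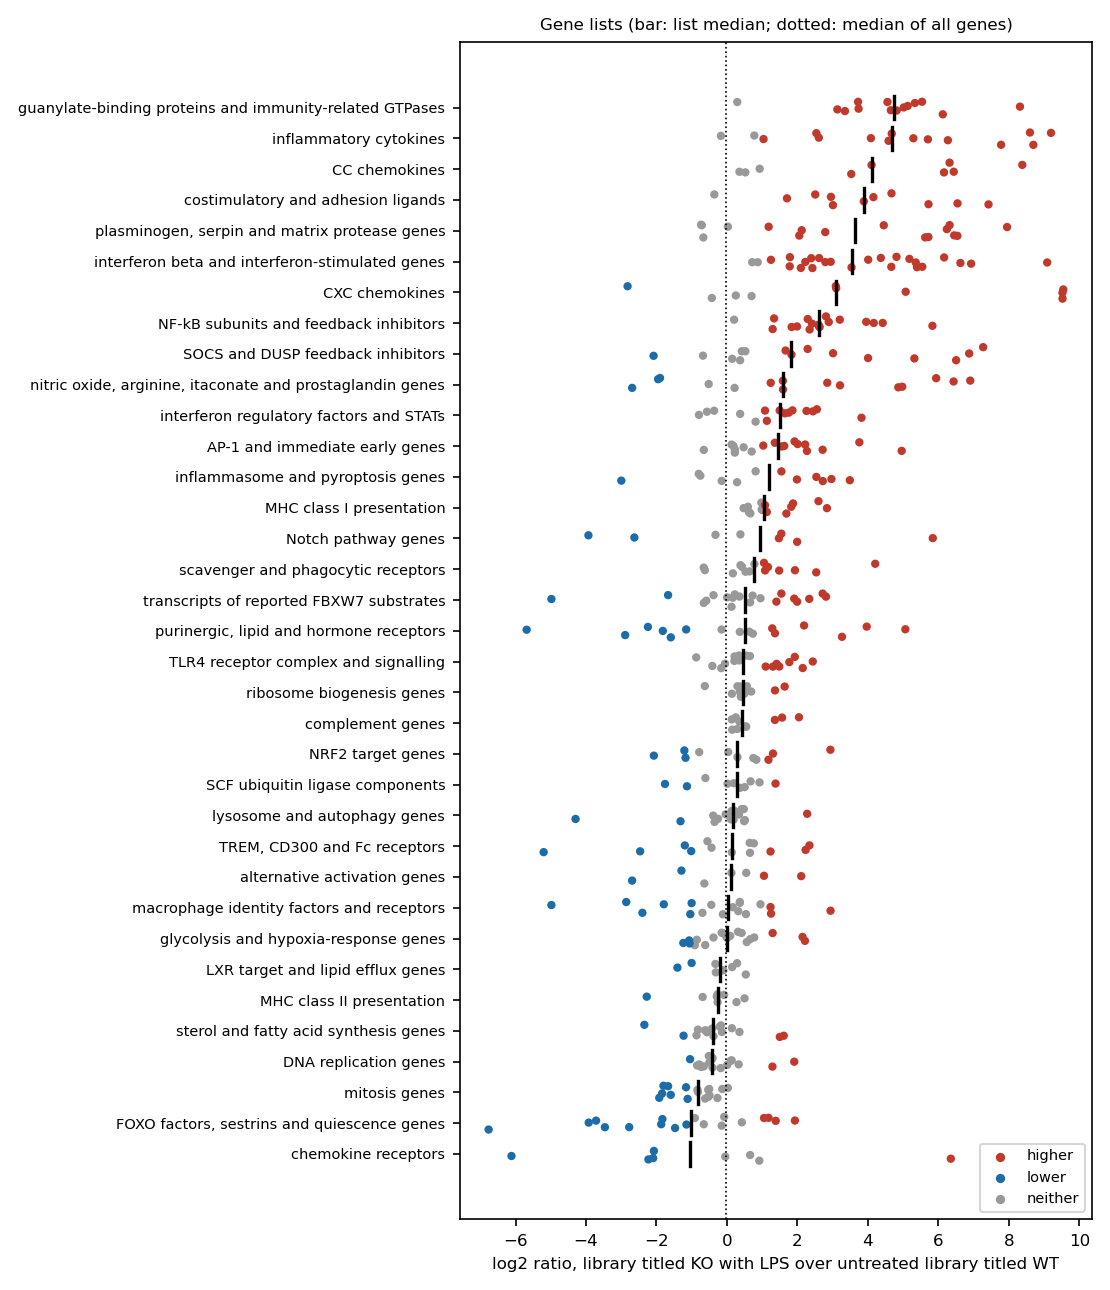
Log2 ratio of KO with LPS to WT untreated for each measured member of the gene lists, 1 row per list, with a bar at the list median and a dotted line at the median of all genes. The GTPase, cytokine and CC chemokine lists have the medians farthest to the right, and the mitosis, chemokine receptor and FOXO lists have medians to the left of 0.

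Enzymes that make nitric oxide, itaconate and prostaglandins were higher for 10 of 15 genes and lower for 3. Nos2, inducible nitric oxide synthase, had 16 counts in WT untreated and 1158 in KO with LPS, 97.6-fold (59.9 to 171) higher. Acod1, which makes itaconate, was at 60.9 CPM in WT untreated and 7311 CPM in KO with LPS, 120-fold (114 to 127) higher. Ptgs2, cyclooxygenase 2, was 30.4-fold (22.6 to 41.8) higher, whereas its constitutive relative Ptgs1 was 3.78-fold (3.03 to 4.75) lower and the leukotriene enzyme gene Alox5 4.14-fold (2.46 to 7.41) lower. Ptgs1 was at 22.2 CPM in WT untreated and 5.87 CPM in KO with LPS, but at 4.99 CPM in KO untreated. Alox5 was at 4.31 and 1.04 CPM, and at 1.30 CPM in KO untreated. By edgeR over the 4 libraries, no gene of this list fell at an adjusted p under 0.05. Arg1, arginase 1, had 29 and 2 counts. Of 20 glycolysis genes, 3 were higher and 3 lower in this pair, where 29.8% of all genes were called. Those higher were Pfkfb3 (4.64-fold, 4.41 to 4.88), Pfkp and the hexokinase gene Hk2, and those lower were Vegfa, Bnip3 and Gapdh. Over the 4 libraries, 6 of the 20 rose and none fell by edgeR at an adjusted p under 0.05. DESeq2 gave 6 rising and 4 falling. Vegfa did not pass (edgeR adjusted p = 0.220). Its log2 ratio in WT with LPS was 0.27 against WT untreated and -1.18 against KO untreated. Gapdh had only 167 counts in WT untreated and 58 in KO with LPS, is a gene with many processed copies in the genome, and is uncertain.

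Costimulatory and adhesion ligands were higher for 10 of 11 genes, with a median of 3.88. The activation antigen gene Cd69 was 174-fold (148 to 207) higher, Cd40 53.3-fold (46.0 to 62.2), the PD-L1 gene Cd274 25.5-fold (23.9 to 27.2) and Icam1 17.9-fold (16.9 to 18.9). Class I presentation genes were higher for 8 of 14, for example the class I transactivator Nlrc5 (7.16-fold, 6.67 to 7.69) and the peptide transporter Tap1 (6.06-fold, 5.79 to 6.34). The 14 genes summed to 8280 CPM in WT untreated and 14038 CPM in KO with LPS. They summed to 18112 CPM in KO untreated and 24469.5 CPM in WT with LPS. The direction of the class I sum in KO with LPS thus depends on which untreated library is used. Class II presentation genes were not called, except the class II transactivator Ciita, which was 5.52-fold (2.74 to 12.6) lower. Cd74 and H2-Aa had log2 ratios of 0.50 and -0.27. The 2 presentation pathways thus differed in their counts of called genes, and the difference between the lists was not tested.

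Proteases and their inhibitors were higher for 12 of 16 genes and lower for none, with a median of 3.62. Serpinb2, which encodes plasminogen activator inhibitor 2, was 287-fold (168 to 541) higher, and the collagenase gene Mmp13 80.3-fold (72.7 to 88.8). Tissue factor, F3, had 0 and 76 counts, at least 34.2-fold higher. Among inflammasome genes, 6 of 12 were higher, with Nlrp3 at 7.82-fold (7.34 to 8.35) and Casp4, the sensor of cytosolic LPS, at 11.3-fold (10.1 to 12.6), and Nlrp1b was 8.09-fold (6.65 to 9.91) lower. Scavenger and phagocytic receptors were higher for 7 of 15, the highest being the C-type lectin gene Clec4e (18.5-fold, 17.3 to 19.9). Complement genes were higher for 3 of 10, C3, C5ar1 and Cfb, and the C1q genes were not called. Over all genes, 14.1% were higher and 29.8% were called either way. By edgeR over the 4 libraries, 1 of these 10 rose at an adjusted p under 0.05.

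Genes called lower had a median level of 2.32 FPKM in WT untreated, against 3.16 FPKM for genes called higher and 5.99 FPKM for genes that were neither. Macrophage identity genes had 6 of 18 members lower and 3 higher. Beside Cebpa, the lower ones included the transcription factor genes Rxra (5.30-fold, 4.75 to 5.91), Maf (3.46-fold, 3.31 to 3.63) and Nr1h3, and the cytokine receptor gene Csf2rb. The higher ones were Tfec, Cebpb and Fcgr1. Fcgr1 was at 227 CPM in WT untreated and 536 CPM in KO with LPS, but at 564 CPM in KO untreated. Nr1h3 was at 33.7 CPM in WT untreated and 16.8 CPM in KO with LPS, but at 32.4 CPM in WT with LPS. Neither Fcgr1 nor Nr1h3 passed over the 4 libraries (edgeR adjusted p = 0.258 and 0.140). Spi1, the master factor of the lineage, Adgre1 and Csf1r were not called, at 0.36, 0.54 and -0.70. Thus factors of the lineage were split while most of its surface markers lay within 2-fold.

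FOXO factors, sestrins and quiescence genes were lower for 9 of 18 members and higher for 4, with a median of -1.03. Foxo3 was at 105 CPM in WT untreated and 6.85 CPM in KO with LPS, 15.4-fold (12.7 to 18.8) lower. Sesn1, a stress-induced inhibitor of mTORC1 signalling, was 13.2-fold (11.8 to 14.8) lower, Ypel2 11.8-fold (7.59 to 19.3) lower and Txnip, an inhibitor of glucose uptake, 2.78-fold (2.66 to 2.90) lower. The CDK inhibitor gene Cdkn1a was 3.81-fold (3.70 to 3.92) higher. Sesn3, another sestrin gene, went against Sesn1 and was 2.08-fold (1.83 to 2.37) higher, and Bcl6 and Pik3ip1 were also called higher. Sesn3 was at 17.4 CPM in WT untreated and 36.2 CPM in KO with LPS, but at 17.6 CPM in WT with LPS. Pik3ip1 was at 3.40, 7.83 and 3.90 CPM in the same libraries. Neither Sesn3 nor Pik3ip1 passed over the 4 libraries (edgeR adjusted p = 0.151 and 0.134). Further genes among the 15 lowest ratios were Ddit4, another inhibitor of mTORC1 (28.0-fold lower, 18.4 to 45.0), Tfeb, a factor for lysosome genes (20.6-fold lower, 14.4 to 30.5), and the cannabinoid receptor gene Cnr2 (59.4-fold lower, 32.1 to 124). Of 18 lysosome and autophagy genes only Tfeb and Ulk1 were lower and only Mitf was higher, and cathepsin genes such as Ctsb were within 2-fold.

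Receptors for purines, lipids and hormones divided evenly, 6 of 16 higher and 6 lower. Adora2a, an adenosine receptor gene, was 16.1-fold (12.6 to 20.8) higher and Gpr84, a fatty acid receptor, 34.6-fold (26.7 to 45.5) higher. P2rx7, the ATP-gated channel gene, was 3.54-fold (3.13 to 4.02) lower and Lpar6 7.47-fold (6.33 to 8.88) lower. Of 13 TREM, CD300 and Fc receptor genes, 4 were lower, led by Cd300lb (37.7-fold, 29.5 to 48.8), and 3 were higher, the Fc receptor genes Fcgr1, Fcgr2b and Fcgr4. Fcgr1 was not higher against KO untreated, at 536 CPM in KO with LPS and 564 CPM in KO untreated.

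Mitosis genes were lower for 7 of 17 and higher for none, with a median of -0.82. Plk1 was 3.82-fold (3.16 to 4.66) lower and Cdc20, the activator of the anaphase-promoting complex, 3.61-fold (3.03 to 4.31) lower. Mki67 was not called, at 0.02. The 17 genes summed to 933 CPM in WT untreated and 613 CPM in KO with LPS, against 359 CPM in KO untreated and 269 CPM in WT with LPS. By this sum, the 2 low-Lyz1 libraries held more mitosis transcripts than their counterparts of the same treatment. KO with LPS also held more than KO untreated, so the direction of the sum depends on which untreated library is used. Plk1 and Cdc20 did not follow the sum. Against KO untreated they were also lower in KO with LPS, though within 2-fold, at log2 ratios of -0.48 and -0.37. By edgeR over the 4 libraries no mitosis gene fell at an adjusted p under 0.05, 5 fell at an unadjusted p under 0.05, 5 fell by DESeq2 and none by limma-voom. Replication genes had a median of -0.41, with 2 of 17 higher, Pcna and Ccne1, and 1 lower, Rrm2, where 29.8% of all genes were called. Rrm2 was at 67.3 CPM in WT untreated and 32.5 CPM in KO with LPS, but at 31.4 CPM in KO untreated. By edgeR over the 4 libraries, 2 replication genes rose and none fell at an adjusted p under 0.05. Of 20 transcripts whose proteins are reported FBXW7 substrates, 7 were higher, among them Ccne1 (3.78-fold, 3.27 to 4.38), Notch1 (3.98-fold, 3.73 to 4.26) and Klf6 (5.05-fold, 4.88 to 5.22), and 2 were lower, Cebpa and Aurka. For all genes the share called was 29.8%. FBXW7 acts on these proteins after translation, so transcript counts do not measure its action on them.

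Other lists had few calls or calls in both directions. Ribosome biogenesis genes were higher for 2 of 14, sterol and fatty acid synthesis genes were higher for 2 of 16 and lower for 2, and NRF2 targets were higher for 3 of 11 and lower for 3. Among 12 housekeeping genes, Gapdh alone was called. Markers of other blood and stromal cells were scarce. No erythroid or NK cell marker reached 1 CPM, and neutrophils were represented by S100a8 alone, with 43 and 45 counts. Lck, a T cell kinase gene, had 1 and 98 counts, Kit 0 and 46, Xcr1 10 and 144 and Pdgfrb 13 and 44. In each case these were low levels in KO with LPS, and the T cell receptor genes Cd3e, Cd3d and Cd3g were below 1 CPM. Cd79b, a B cell receptor component, had 692 and 447 counts. Summed over each whole list, in WT untreated and KO with LPS, T cell markers were at 29.6 and 62.0 CPM, mostly Cd4, dendritic cell markers at 1.77 and 9.36 CPM and fibroblast markers at 1.86 and 5.81 CPM. The part of such cells in the results was not tested. In bulk RNA, fewer cells of a type and less RNA per cell cannot be told apart. Xist, expressed in female cells, and the Y-linked gene Ddx3y were both present in each library, at 312 CPM in WT untreated and 352 CPM in KO with LPS for Xist and 31.0 CPM in WT untreated and 30.8 CPM in KO with LPS for Ddx3y.

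Some genes called higher lay side by side. Whether neighbours shared a direction more than genes lying apart was not tested. The longest stretch of neighbouring measured genes with 1 direction was the Ifi200 family with Aim2 on chromosome 1, chr1:173350879-174248450 on mm10, with 15 genes higher and a median log2 ratio of 3.51. A stretch of 10 genes on chromosome 11 held the Schlafen family (Slfn1 to Slfn9), with a median of 2.99. The stretch with Cxcl9, Cxcl10 and Cxcl11 on chromosome 5 held 6 genes with a median of 6.90, the Gbp stretch on chromosome 3 held 7 genes with a median of 5.02, and the Ifit stretch on chromosome 19 held 6 with a median of 4.48. A stretch lower throughout, of 5 genes on chromosome 11, contained Nlrp1a and Nlrp1b and had a median of -2.50. Members of these families are related in sequence and may share reads, so their counts may not be independent.

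By the authors' annotation of transcription factor families, 785 factor genes were measured, 116 of them higher and 174 lower, with a median of -0.35. Over all genes 29.8% were called, 14.1% higher and 15.7% lower. The zinc finger family zf-C2H2 had 33 higher and 85 lower of 379 (31.1% called, near the share of all genes), and the IRF family 6 higher and none lower of 8 (75%). Nuclear receptors annotated as THR-like had 1 higher and 7 lower of 11 (72.7%), and forkhead factors 2 higher and 6 lower of 13 (61.5%). No family was tested against all genes. Long intergenic noncoding RNAs were called more often than protein-coding genes, 31 higher and 66 lower of 185 (52.4%) against 29.2% of 11119 protein-coding genes. This difference was not tested.

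The remaining libraries form a second pair, WT with LPS against KO untreated, which shares no library with the pair above and reverses the titles. In it 1682 genes were higher (13.6%) and 1838 lower (14.9%). Of the genes higher in KO with LPS over WT untreated, 1426 were also higher in the second pair, which is 81.8% of the first list and 84.8% of the second. Of the genes lower, 1442 were shared, 74.5% and 78.5% of the lists. Only 3 genes were higher in the first and lower in the second, and 2 the reverse. The list medians of the second pair were 5.23 for cytokines, 3.02 for interferon-stimulated genes, 2.72 for NF-kB genes and -0.84 for mitosis genes, against 4.68, 3.54, 2.61 and -0.82 here. The interferon median was larger here and the cytokine median larger there, and these differences of medians were not tested.

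**Figure D4:**
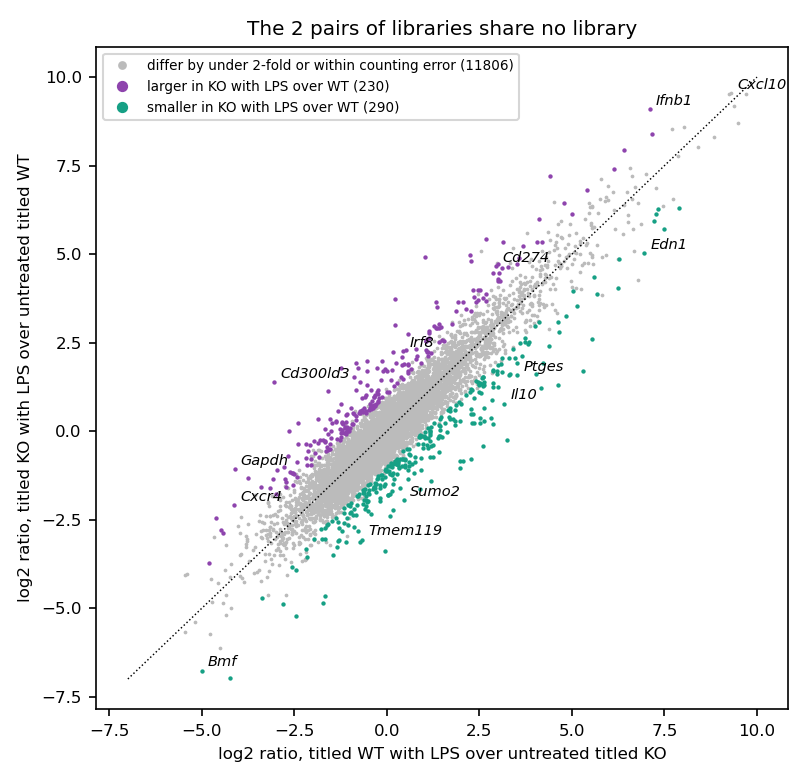
Log2 ratio of WT with LPS to KO untreated on the horizontal axis and of KO with LPS to WT untreated on the vertical axis, 1 point per measured gene, with the line of equal ratios dotted. The coloured genes are the 520 (4.22%) whose ratios differ by 2-fold or more beyond counting error.

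The 2 ratios differed by at least 2-fold, with a counting interval that excluded no difference, for 520 genes (4.22%), 230 larger (1.87%) and 290 smaller (2.35%) in KO with LPS over WT untreated. When libraries were instead paired within titles, the WT and KO ratios differed for 2229 genes (18.1%). In arithmetic, the first difference is the contrast of KO with WT titles summed over treatments, and the second is the contrast of the high-Lyz1 with the low-Lyz1 libraries, which chose the pairs. The 2 counts are given side by side with no test.

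Among the genes with larger ratios here, Irf8 had a log2 ratio of 2.26 against 0.44 in the second pair, a difference of 1.82 (1.74 to 1.89). It was at 171 CPM in WT untreated and 818 CPM in KO with LPS, and at 209.9 CPM in KO untreated and 285 CPM in WT with LPS. WT untreated was thus the lowest of the 4 libraries for Irf8 and KO with LPS the highest. Cd274 differed by 1.73 (1.62 to 1.83) and the phosphatase gene Dusp5 by 1.78 (1.49 to 2.07). Cxcr4 was lower in both pairs but less so here, -2.10 against -4.13. Tnfaip6, which encodes a hyaluronan-binding protein, had 0 and 229 counts here, at least 103-fold higher.

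Among the genes with smaller ratios here, Il10 had 0.78 against 3.17, a difference of -2.40 (-2.83 to -1.96). It was at 6.53 CPM in WT untreated and 11.3 CPM in KO with LPS, and at 3.58 CPM in KO untreated and 33.1 CPM in WT with LPS, so WT with LPS stood above the other 3 libraries. Arg2, the mitochondrial arginase, had 0.22 against 2.34, the Notch ligand gene Jag1 0.38 against 2.53, and Ptges, prostaglandin E synthase, 1.59 against 3.52. Il1b was higher in both pairs, with 5.70 here and 7.49 there. For Il10, Arg2 and Jag1 the ratio here did not pass the size rule while that of the second pair did. Srp54b, Sumo2 and Dynlt1c were also on this list and have near-identical copies, so they are uncertain.

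**Figure D5:**
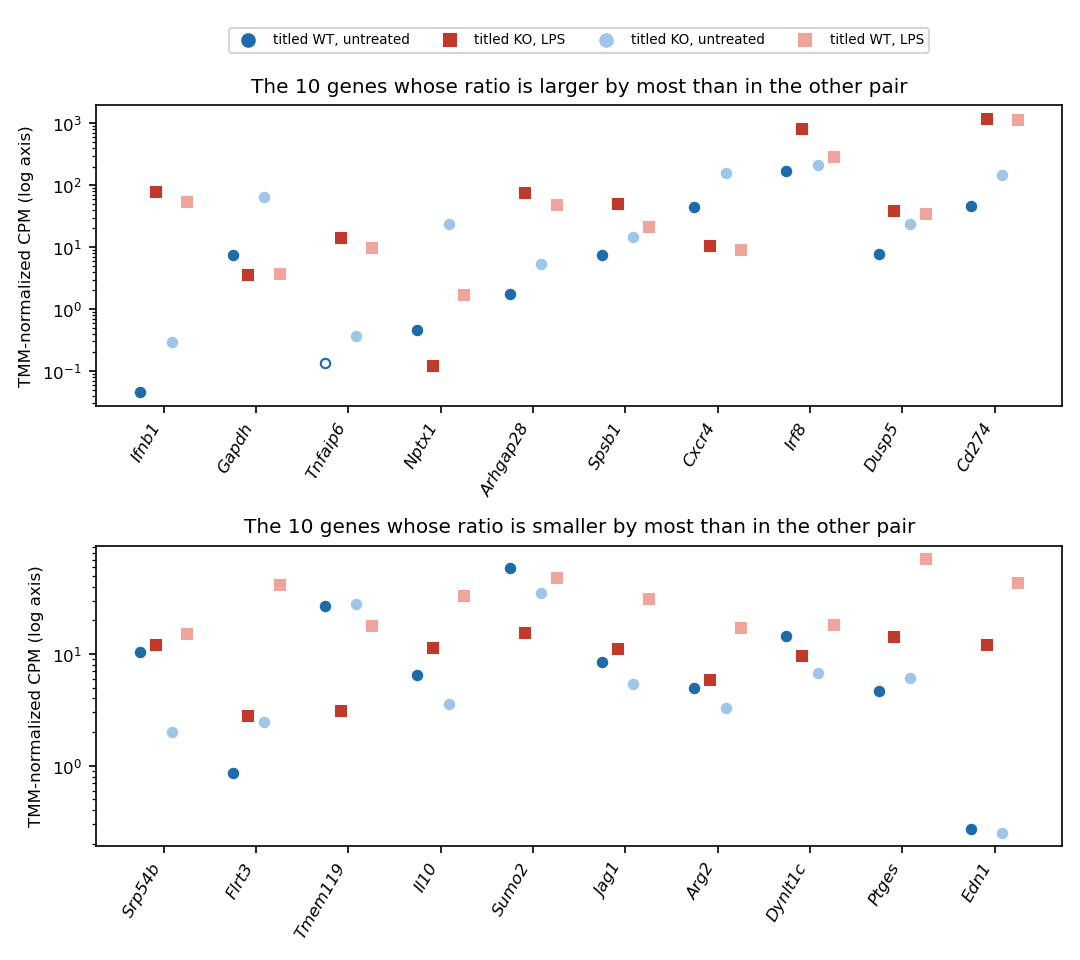
CPM on a log axis in the 4 libraries for the genes whose ratios differed most between the pairs. Open symbols are genes with 0 counts drawn at the level of 3 counts. For Il10, WT with LPS is the highest library, and for Irf8 it is KO with LPS.

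All 4 libraries together allow a replicated test of LPS against untreated that leaves genotype out of the model. Because it includes the 2 libraries described here, it is not independent of them. By the genotype labels, as opposed to the titles, both untreated libraries are FBXW7f/f and both LPS libraries LysM-cre FBXW7f/f, so by label genotype and treatment cannot be told apart in this test either. Nothing says that the libraries came from separate cultures or animals, so its p-values measure only the spread between these samples. By edgeR's quasi-likelihood test, 2097 genes rose (17% of those tested) and 2036 fell (16.5%) at a Benjamini-Hochberg adjusted p under 0.05, 33.5% in all. Of the genes called higher in KO with LPS, 1481 (84.97%) also rose, and of those called lower, 1388 (71.7%) also fell. None went the opposite way. By this test 13 of 15 cytokines rose, and the FOXO list had 2 rising and 10 falling of 18 and the macrophage identity list had 2 rising and 5 falling of 18. The interferon list had 23 of 25 rising and the NF-kB list 17 of 18. Cxcl10 rose by a log2 value of 9.45 (edgeR adjusted p = 0.00110), Tnf by 5.27 (adjusted p = 0.00110) and Rsad2 by 6.44 (adjusted p = 0.00151). In the other direction, Cebpa had -4.64 (edgeR adjusted p = 0.00131), Foxo3 -3.73 (adjusted p = 0.00151) and Fbxw7 -0.70 (adjusted p = 0.0428). With genotype title as a block, Fbxw7 no longer passed (edgeR adjusted p = 0.158). The test has 2 residual degrees of freedom. With the block it has 1, and 1259 genes rose and 787 fell. Leaving out WT untreated gave 1263 rising and 908 falling, leaving out KO untreated 1383 and 905, leaving out WT with LPS 1543 and 1212, and leaving out KO with LPS 1480 and 995.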

How the data were processed

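RNA sequencing of 4 mouse macrophage libraries was analysed, 2 of them in the comparison described. Marrow cells grew in L929-conditioned medium, per the labels' protocols. Reads were aligned with HISAT2 2.0.5 to mm10, per the submitters' processing notes. The authors deposited raw counts per gene and FPKM for each library, per the file headers, with strand handling and counting program not stated in the sources used here. A further 8 value columns were left unused. The authors' deposited comparisons number 4 and do not include the pair described here.

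Counts were scaled by TMM in edgeR 4.0.16 (R 4.3.3), with factors of 1.25 and 0.840 for WT untreated and KO with LPS, and 1.16 and 0.820 for KO untreated and WT with LPS. Ratios on the log2 scale of the deposited counts used a prior count of 2, and intervals are exact 95% Clopper-Pearson intervals of the 2 counts. Printed folds carry no prior count. Of listed genes with 0 counts in WT untreated, Il12b, Csf3 and F3 lie on the same side of their list medians at their bounds. Kit, also at 0 counts there, was the only measured gene of its list and so sets that median itself. Differences between pairs had delta-method Poisson intervals at 95%. The 4-library test was edgeR's quasi-likelihood F test of treatment with Benjamini-Hochberg adjustment, with DESeq2 1.42.0 and limma 3.58.1 as alternatives, and was tested on simulated data.

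Genes were named by rule: the 15 highest and 15 lowest protein-coding ratios with a mean of at least 5 CPM, up to 4 per gene list with the largest ratios or called against the list, the 10 largest differences between pairs each way, the 5 most abundant genes per library, and Lyz1, Lyz2, Fbxw7, Ccl2 and Ccl7. Other list members are named to show those not called, or for what they do, and were chosen after their values were seen. The members and lists were chosen with earlier results of these data known. Promoters came from RefSeq (GRCm38.p6).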

Additional observations from a re-analysis of the deposited data

Results flagged for a closer look

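The 5 genes below were called in opposite directions in the 2 pairs. The difference was not tested. Cd300ld3 had 10 and 22 counts in WT untreated and KO with LPS but 408 and 29 in KO untreated and WT with LPS, a difference of 4.45 between the log2 ratios. Gm10076 had 611 and 1560 counts against 951 and 248, a difference of 3.03. Camkk1, a kinase that acts on CaM kinases, had 36 and 61 counts against 44 and 8, a difference of 2.73. Rpl30-ps1, a pseudogene, had 63 and 22 counts against 21 and 56, a difference of -3.01. Tal2 had 39 and 10 counts against 36 and 53, a difference of -2.58. These genes were singled out after their values were seen, and Rpl30-ps1 is a copy of a ribosomal protein gene whose reads may be shared.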

How the results depend on the processing

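The comparison rests on 1 library per side, so counting intervals hold no biological spread, and genotype and treatment cannot be told apart. Scaling by library totals gave 1041 genes higher and 4127 lower. A mean of at least 5 CPM gave 1152 lower. FPKM with a pseudocount of 1 gave 650 lower. A size rule of 4-fold gave 774 higher and 464 lower, and 32 larger and 38 smaller differences between the pairs. DESeq2 size factors, TMM on the 2 libraries, other prior counts, no filter and protein-coding genes alone left the counts of higher and lower genes within 1.5 times.

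For the 4-library edgeR test, the additive model with genotype title as a block gave 1259 rising and 787 falling, and no filter beyond 1 count gave 3264 falling. Leaving out 1 library gave 1263 to 1543 rising and 905 to 1212 falling, where the lone sample is assumed to vary like the other group. No named gene that was called changed sign under the alternatives run. With library totals, 8 named genes that were not called (Lyz2, Srp54b, Jag1, Arg2, Fth1, Apoe, Tmsb4x and mt-Co1) and 13 list medians changed sign, and with DESeq2 size factors 2 list medians did. Over the alternatives, 291 of 1116 values of named genes and 52 of 152 list medians moved by more than their error.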
